A study of Pyrus pyrifolia with 6 samples.

Results

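Genes for WRKY, NAC and MYB transcription factors were followed in the pulp of Akibae pear (Pyrus pyrifolia) after a boron application. They were the 50 genes of a deposited table of 4291 differing genes whose description names a WRKY, NAC or MYB protein, namely 15 WRKY, 8 NAC and 27 MYB genes. The study compared mRNA of fruit that had received a boron application with fruit of a control group that the labels call CK, with 3 libraries in each group, and all fruit came from the same university orchard. The labels give no dose, form of boron, time of harvest or nature of the control treatment. Nothing in them ties the libraries of a group to separate fruits or trees, and the p-values below cover only the spread between libraries, which may be technical. The table lists 10.2% of the 42194 genes for which the second deposited table has a score, and the authors had chosen them as different between these same libraries. That each of the 50 differs is therefore given by the way they were chosen and is a description. WRKY, NAC and MYB genes outside the table were not analysed here.

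WRKY factors bind W-box elements in promoters and are known for switching defence, stress and senescence programmes on or off. NAC factors share a DNA-binding domain at the amino end, and members of the family direct secondary wall formation, senescence, drought responses and, in several fleshy fruits, ripening. MYB factors carry repeats of a helix-turn-helix domain. The R2R3 type controls phenylpropanoids, flavonoids and cell shape, often together with bHLH and WD40 partners, and MYB-related types serve the circadian clock and the phosphate response. Gene roles given below come from the species named with them, mostly Arabidopsis, because pear genes carry their names by similarity. A short form such as WRKY26 stands for the numbered name in the description. The deposited protein family column put a WRKY domain in all 15 WRKY genes, a NAM domain, the NAC DNA-binding domain, in all 8 NAC genes, and a Myb domain in 21 of the 27 MYB genes. The other 6 had no family entry: the Myb-like activator LOC103959532, MYB1R1, myb-like protein F, an L10-interacting MYB protein, a myb/SANT-like protein and ETC1.

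Boron fruit had higher levels of 37 of the 50 genes and lower levels of 13. All 50 passed the limma test at an adjusted p of at most 0.05, beside 99.2% of the 4291 listed genes. The 37 genes called higher make 74.0% of the 50, beside 73.0% of all listed genes, and the 13 called lower stand beside 26.2%. Both shares lie near the background and are no result about these families. By family, 10 of 15 WRKY genes were higher and 5 lower, 5 of 8 NAC genes were higher and 3 lower, and 22 of 27 MYB genes were higher and 5 lower. The median log2 fold change of boron over control was 1.32 for the 50 genes, against 1.62 for all listed genes. It was 1.30 for WRKY, 1.18 for NAC and 1.64 for MYB genes. The 2 genes at 0 reads in the control group have lower bounds above the median of the 50, so setting them to those bounds could not change it. Libraries of the groups did not overlap in 49 of the 50 genes, beside 97.7% of all listed genes.

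The direction of many rises depended on the scaling of the libraries. Scaling by TMM takes most genes of a table to be unchanged, and here every gene of the table had been chosen as different. It moved the median of all listed genes by -1.40 on the log2 scale. With it 11 of the 50 genes were called higher, beside 33.4% of all listed genes, and 13 were called lower, beside 28.9%, where 62.3% of all listed genes were called in either direction. All 13 falls were called lower under TMM, DESeq2-type size factors and quantile normalization alike. TMM and DESeq2-type scaling shift fold changes downward, by -1.40 and -1.35 in the median of all listed genes. Falls could not change sign there, so their calls with TMM or DESeq2-type scaling are no separate check. Quantile normalization moved that median by -1.25 and made every fall but that of NAC56 larger. Its calls of the other falls are no separate check either. Of the 37 rises, 6 were called higher under all 3 rescalings: NAC72, NAC2, WRKY65, the Myb-like activator LOC103959532, the MYB6-like gene LOC103935943 and myb-like protein J. The share of all listed genes called under all 3 was not counted, so neither the 6 rises nor the 13 falls are a result about these families. Another 15 rises turned to small negative values under TMM, none of them called, and 11 kept their sign without being called. Rises below are relative to the authors' size factors unless another scaling is named. Which genes those factors were computed over is not given in the sources used here.

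**Figure D1:**
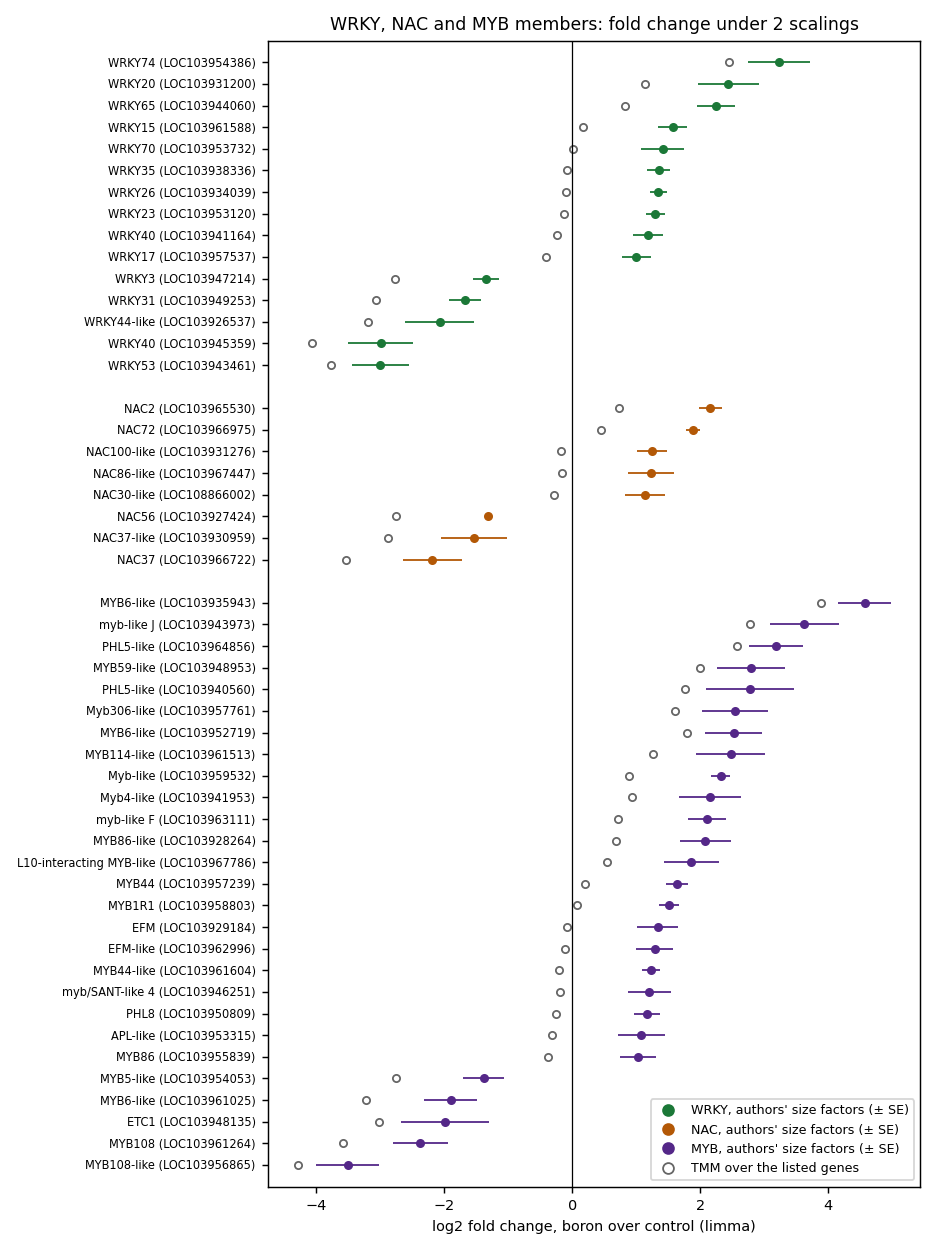
Log2 fold change of boron over control for each of the 50 genes, by family and ordered by size, with filled points and lines for limma estimates ± SE on the authors' size factors and open circles for TMM over the listed genes. The 13 falls stay below 0 with both scalings, while 15 of the 37 rises cross 0 with TMM, which shifts values downward.

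The smallest change among the members by the authors' deposited table was that of WRKY17, with a log2 fold change of 1.03, and the smallest fall was that of NAC56, at -1.31. The listed genes reach down to an absolute log2 fold change of 1.00 in that table, and genes below it were not analysed here. The largest adjusted p of a member in the authors' deposited table was 0.0486, for the WRKY44-like gene.

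**Figure D2:**
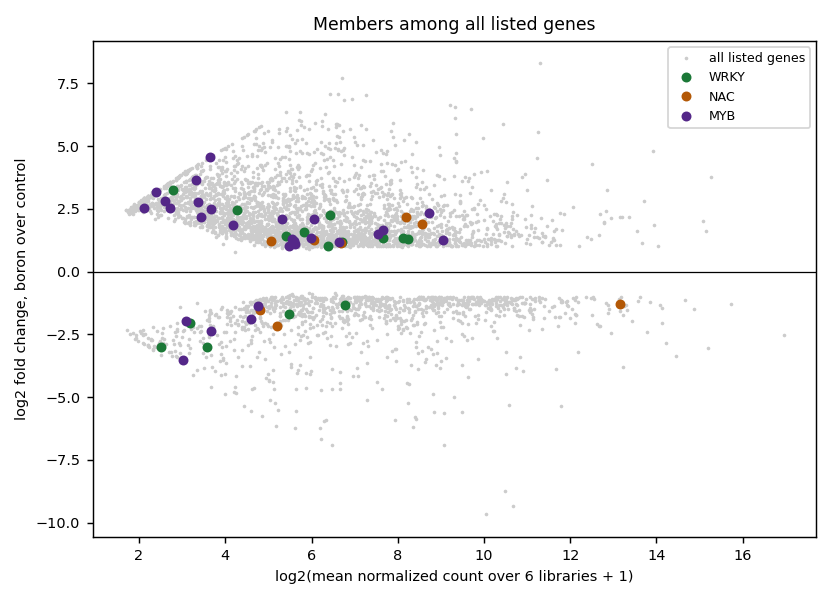
Mean level over the 6 libraries, as log2(mean normalized count + 1), against log2 fold change of boron over control, for all 4291 listed genes in grey and the WRKY, NAC and MYB members in colour. Members lie among the other listed genes, NAC56 alone stands at the right at -1.31, and the gap around 0 is the authors' selection of listed genes.

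Levels within the 50 genes were very uneven, and one NAC gene held the largest share of reads in every library. The members took 11722 to 11966 reads in the boron libraries and 14649 to 15119 in the control libraries, out of 1914312 to 2056668 reads in all listed genes of a library. NAC56 (LOC103927424) made up 46.0% to 46.9% of the members' normalized counts in boron libraries and 83.9% to 84.3% in control libraries. Summed over the members, WRKY genes had 1783 ± 69.5 normalized counts in boron and 911 ± 70.7 in control libraries (mean ± SD, n = 3 here and below). MYB genes summed to 2860 ± 248 against 1043 ± 73.5. NAC genes went the other way, 6580.4 ± 202 against 13431 ± 349, but without NAC56 the other 7 had 1372 ± 71.3 against 487 ± 12.7. No library of one group reached into the other in any of these sums. The sums use the authors' size factors and were not rescaled, and 15 single rises turned negative with TMM. In bulk pulp, fewer cells of a type and less RNA per cell cannot be told apart.

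**Figure D3:**
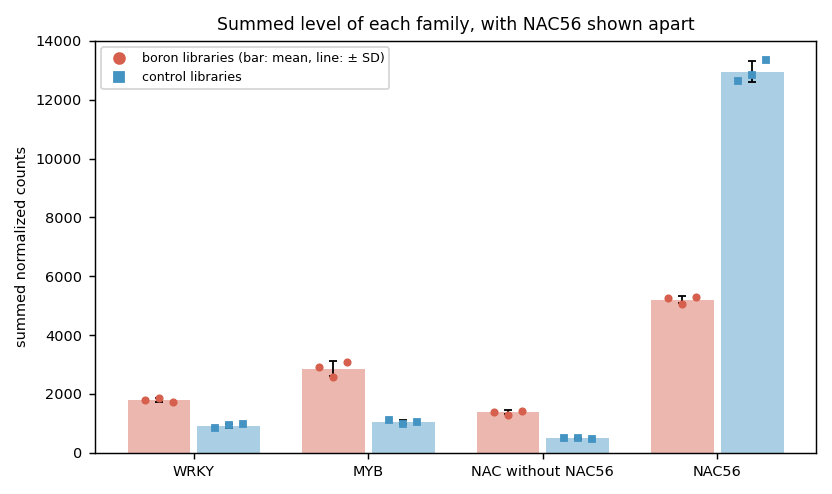
Summed normalized counts of the WRKY, MYB and NAC members and of NAC56 alone, with bars for the group mean, lines for ± SD over 3 libraries and points for single libraries. With the authors' size factors, WRKY, MYB and the other NAC genes sum to more in boron libraries, and NAC56 is lower there, 5208 against 12944.

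NAC56, named after an Arabidopsis regulator of seed coat development, was the most abundant of the 50 genes per kilobase of gene length, with 3005 normalized counts per kilobase in boron and 7469 in control libraries. The gene (scaffold NW_008988422.1, 392955 to 395009, minus strand) had 5264, 5058 and 5303 normalized counts in boron libraries 1 to 3 and 12643, 12851 and 13339 in control libraries 1 to 3. Every boron library lay far below the lowest control library. The log2 fold change was -1.31 ± 0.05 (SE; adjusted p = 3.14e-09 by limma). It was called lower in every alternative tried, with log2 fold changes of -1.33 to -1.29 when single libraries were left out. With TMM, DESeq2-type and quantile scaling the log2 fold change was -2.75, -2.71 and -0.89, so the size of the fall depended on the scaling.

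Among the NAC rises were both genes named after stress regulators. NAC72, known in Arabidopsis as RD26 and tied to dehydration and abscisic acid, had 567, 639 and 578 normalized counts in boron libraries 1 to 3 and 165, 153 and 163 in control libraries 1 to 3 (LOC103966975, scaffold NW_008988366.1, 311928 to 313672, plus strand). NAC2, known in Arabidopsis as ATAF1 and active in abiotic stress and senescence, had 484, 369 and 569 normalized counts in boron libraries 1 to 3 and 119, 107 and 87.5 in control libraries 1 to 3 (LOC103965530, scaffold NW_008988333.1, 88913 to 90866, plus strand). Their libraries were far apart between groups, with log2 fold changes of 1.88 ± 0.11 (SE; adjusted p = 6.89e-08 by limma) for NAC72 and 2.16 ± 0.18 (SE; adjusted p = 1.13e-06 by limma) for NAC2. Both stayed called under TMM at lower values, 0.45 for NAC72 and 0.73 for NAC2. Per kilobase their group means were similar, with 385 normalized counts for NAC72 and 347 for NAC2 in boron libraries, and 104 and 76.5 in control libraries. Single libraries differed, and boron library 2 was the highest of its group for NAC72 and the lowest for NAC2.

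The NAC genes LOC103966722, LOC103930959 and LOC108866002 carry the names of Arabidopsis VND factors, which switch on the formation of xylem vessels, and they did not move together. NAC37 (LOC103966722) had 5.82, 13.5 and 18.6 normalized counts in boron libraries 1 to 3 and 67.8, 76.0 and 33.5 in control libraries 1 to 3, a log2 fold change of -2.18 ± 0.46 (SE; adjusted p = 0.00102 by limma). NAC37-like (LOC103930959) had 28.1, 7.21 and 8.83 normalized counts in boron libraries 1 to 3 and 45.9, 23.9 and 47.5 in control libraries 1 to 3. Boron library 1 lay above control library 2 there, which made it the only member whose groups overlapped, and the fall of -1.53 ± 0.51 (SE; adjusted p = 0.0136 by limma) lost its call without boron library 2 (adjusted p = 0.0592) or control library 3 (adjusted p = 0.0511). NAC30-like (LOC108866002, scaffold NW_008988614.1, 29890 to 32654, minus strand) was higher in boron fruit, with 172, 114 and 132 normalized counts in boron libraries 1 to 3 and 35.9, 85.3 and 76.7 in control libraries 1 to 3, a log2 fold change of 1.13 ± 0.31 (SE; adjusted p = 0.00482 by limma) that turned to -0.29 with TMM and -0.24 with DESeq2-type scaling, not called in either. Control library 1 was the lowest for NAC30-like, and without it the log2 fold change was 0.75, still called. NAC86-like (LOC103967447), whose Arabidopsis namesake acts when sieve elements of the phloem lose their nuclei, had 45.3 ± 1.00 against 19.9 ± 7.91 normalized counts. NAC100-like (LOC103931276) had 92.0 ± 13.8 against 38.4 ± 6.48. Both were called higher with the authors' size factors, and both turned slightly negative with TMM and DESeq2-type scaling, at -0.16 and -0.12 for NAC86-like and -0.17 and -0.13 for NAC100-like, without a call.

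WRKY genes at higher levels in boron fruit included the most abundant of the family. WRKY23 (LOC103953120, scaffold NW_008988138.1, 826838 to 828780, minus strand), whose Arabidopsis namesake acts downstream of auxin in roots, had 458, 438 and 388 normalized counts in boron libraries 1 to 3 and 151, 207 and 165 in control libraries 1 to 3. WRKY26 (LOC103934039, scaffold NW_008988053.1, 556810 to 562745, minus strand), a heat response factor in Arabidopsis, had 406, 444 and 355 normalized counts in boron libraries 1 to 3 and 146, 171 and 157 in control libraries 1 to 3. WRKY35 (LOC103938336, scaffold NW_008988967.1, 138917 to 140574, minus strand) had 250.1, 311 and 298 normalized counts in boron libraries 1 to 3 and 96.7, 102 and 139 in control libraries 1 to 3. In all of these the lowest boron library stood well above the highest control library, and the log2 fold changes were 1.30 ± 0.14 (SE; adjusted p = 9.61e-06 by limma), 1.34 ± 0.13 (SE; adjusted p = 3.91e-06 by limma) and 1.35 ± 0.17 (SE; adjusted p = 3.10e-05 by limma) in that order. Their size was close to that of the rescaling itself, and under TMM they became -0.13, -0.09 and -0.08, none of them called.

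WRKY65 (LOC103944060, scaffold NW_008988063.1, 184160 to 185881, minus strand) was the WRKY gene with the largest rise among those with a mean of at least 100 normalized counts. It had 188, 118 and 114 normalized counts in boron libraries 1 to 3 and 35.9, 18.7 and 32.4 in control libraries 1 to 3. Boron library 1 was highest, and the log2 fold change was 2.24 ± 0.30 (SE; adjusted p = 4.09e-05 by limma), or 0.83 with TMM, where it was still called. Larger folds were seen at low counts, in WRKY20 (LOC103931200) with 31.7 ± 12.5 against 4.82 ± 1.51 normalized counts and in WRKY74 (LOC103954386), which had 36 reads in the boron libraries together and 1 read in the control libraries. The ratio for WRKY74 was 32.9 (95% counting interval, 5.54 to 1336), an interval that covers counting error only. WRKY20 lost its call under all 3 rescalings, and WRKY74 under quantile normalization.

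Defence-linked WRKY genes were found on both sides. WRKY70, which in Arabidopsis balances salicylate against jasmonate responses, had 59.4 ± 6.98 against 23.0 ± 10.4 normalized counts (LOC103953732). WRKY15 (LOC103961588), tied to osmotic stress in Arabidopsis, had 84.1 ± 8.43 against 27.6 ± 2.42, and WRKY17 (LOC103957537), which dampens basal resistance there, had 111 ± 23.2 against 54.2 ± 7.62. These rises were called with the authors' size factors and not with TMM, where WRKY70 and WRKY15 were at 0.01 and 0.16 and WRKY17 at -0.42. WRKY3 (LOC103947214, scaffold NW_008988085.1, 149678 to 152886, minus strand), which in Arabidopsis contributes to resistance against necrotrophic fungi, was lower, with 50.4, 69.4 and 61.8 normalized counts in boron libraries 1 to 3 and 131, 152 and 185 in control libraries 1 to 3. No boron value of WRKY3 came near the control values, and the test gave a log2 fold change of -1.35 ± 0.21 (SE; adjusted p = 0.000104 by limma). WRKY31 (LOC103949253) had 20.3 ± 1.23 against 67.2 ± 4.15 normalized counts, with little spread in either group. WRKY53, a regulator of leaf senescence in Arabidopsis, had 1 read in the boron libraries and 26 in the control libraries (LOC103943461), a ratio of control over boron of 28.4 (counting interval 4.67 to 1166). WRKY44-like (LOC103926537), named after the Arabidopsis factor TTG2 of trichomes and the seed coat, had 2.89 ± 2.63 against 13.1 ± 1.10. WRKY3, WRKY31, WRKY53 and WRKY44-like were called lower under all 3 rescalings too, and all 3 moved these values further down.

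**Figure D4:**
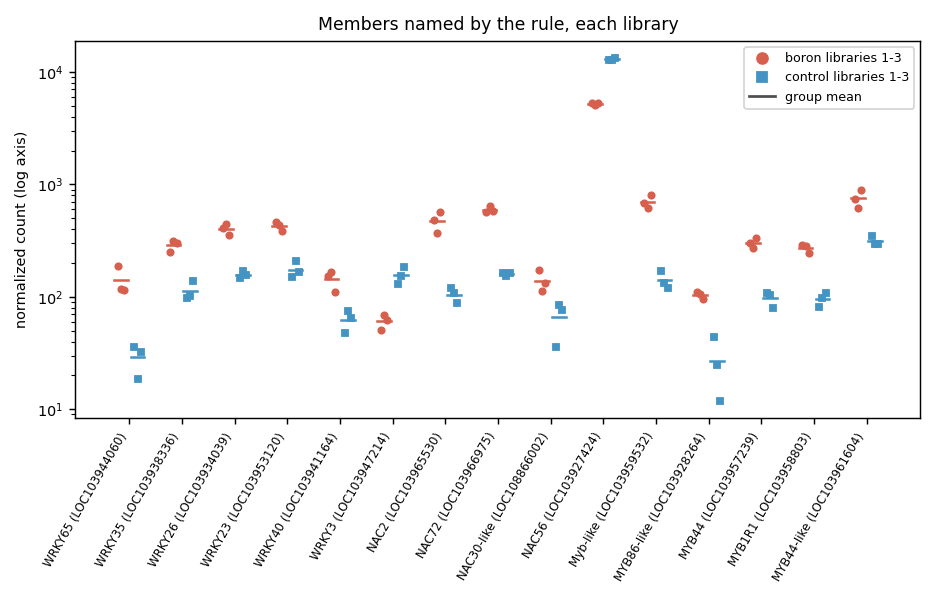
Normalized counts on a log axis for the 15 members with the largest changes at a mean of at least 100 or with the highest level in their family, with circles for boron libraries 1 to 3, squares for control libraries 1 to 3 and bars for group means. In each of the 15 the libraries of the groups do not overlap, and NAC56 and WRKY3 are the ones lower in boron fruit.

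The most abundant MYB genes were higher in boron fruit. MYB44-like (LOC103961604, scaffold NW_008988251.1, 349071 to 350551, plus strand) had 747, 610.3 and 896 normalized counts in boron libraries 1 to 3 and 350.0, 298 and 297 in control libraries 1 to 3, and MYB44 (LOC103957239, scaffold NW_008988042.1, 1763071 to 1764753, plus strand) had 300.5, 270.5 and 337 normalized counts in boron libraries 1 to 3 and 109, 104 and 78.8 in control libraries 1 to 3. MYB44 in Arabidopsis promotes closure of stomata and acts in abscisic acid signalling. Both copies were highest in boron library 3 and lowest, among boron libraries, in library 2. The log2 fold changes were 1.24 ± 0.14 (SE; adjusted p = 1.18e-05 by limma) for MYB44-like and 1.64 ± 0.17 (SE; adjusted p = 5.43e-06 by limma) for MYB44, against -0.20 and 0.21 with TMM, neither called. MYB1R1 (LOC103958803, scaffold NW_008988206.1, 669441 to 671614, minus strand), a drought tolerance factor in potato, had 289.8, 283 and 246 normalized counts in boron libraries 1 to 3 and 80.8, 97.8 and 108 in control libraries 1 to 3. Its log2 fold change was 1.51 ± 0.16 (SE; adjusted p = 6.98e-06 by limma), or 0.08 with TMM and not called.

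The Myb-like activator LOC103959532 (scaffold NW_008988218.1, 268748 to 270018, minus strand), a gene for which the table gives no numbered name, had 687, 618 and 806 normalized counts in boron libraries 1 to 3 and 169, 132 and 121 in control libraries 1 to 3. This log2 fold change of 2.32 ± 0.15 (SE; adjusted p = 1.60e-07 by limma) was the largest among MYB genes with a mean of at least 100 normalized counts, and it stayed called with TMM at 0.89. MYB86-like (LOC103928264, scaffold NW_008988447.1, 361597 to 363523, plus strand) had 110.5, 105 and 95.2 normalized counts in boron libraries 1 to 3 and 43.9, 25.0 and 11.9 in control libraries 1 to 3. The control libraries of MYB86-like were widely spread, and its rise of 2.08 ± 0.39 (SE; adjusted p = 0.000457 by limma) was not called with TMM (0.68) or DESeq2-type scaling (0.72). MYB86 (LOC103955839) had 58.8 ± 11.9 against 28.2 ± 5.51 normalized counts, one of the smallest rises, which became -0.37 with TMM, not called.

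MYB genes named after regulators of flavonoids and phenylpropanoids were at low counts and split in direction. MYB114-like (LOC103961513), named after an Arabidopsis activator of anthocyanin synthesis, had 22.3, 25.2 and 13.7 normalized counts in boron libraries 1 to 3 and 0.997, 5.20 and 3.24 in control libraries 1 to 3. Myb4-like (LOC103941953), whose Arabidopsis namesake represses phenylpropanoid genes, had 18.4, 19.8 and 11.8 normalized counts in boron libraries 1 to 3 and 4.99, 2.08 and 2.16 in control libraries 1 to 3. MYB5-like (LOC103954053), named after an Arabidopsis factor of the seed coat and trichomes, had 14.5, 13.5 and 13.7 normalized counts in boron libraries 1 to 3 and 33.9, 35.4 and 45.4 in control libraries 1 to 3. The first pair was higher and MYB5-like lower in boron fruit, with no overlap of libraries in any of them. The log2 fold changes were 2.47 ± 0.54 (SE; adjusted p = 0.00125 by limma) for MYB114-like, 2.16 ± 0.49 (SE; adjusted p = 0.0015 by limma) for Myb4-like and -1.38 ± 0.32 (SE; adjusted p = 0.00164 by limma) for MYB5-like. Of these calls only that of MYB5-like, a fall, held under the rescalings, and all of them moved its value further down. The gene similar to myb-related protein 306 (LOC103957761) had 32 reads in the boron and 3 in the control libraries, a ratio of 9.75 (counting interval 3.05 to 49.8), and its call was lost with quantile normalization.

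Both MYB108 genes were close to the floor of detection in boron fruit. MYB108 in Arabidopsis takes part in stamen maturation under jasmonate and in responses to a necrotrophic fungus. MYB108 (LOC103961264) had 2.91, 3.61 and 2.94 normalized counts in boron libraries 1 to 3 and 18.9, 21.9 and 20.5 in control libraries 1 to 3. MYB108-like (LOC103956865, scaffold NW_008988184.1, 198848 to 200457, plus strand) had 1 read in the boron libraries together and 8.97, 11.4 and 21.6 normalized counts in control libraries 1 to 3. The control level of MYB108 was tight and that of MYB108-like varied, with control library 3 highest. Log2 fold changes were -2.37 ± 0.43 (SE; adjusted p = 0.000348 by limma) for MYB108, and MYB108-like had a ratio of control over boron of 43.7 (counting interval 7.41 to 1770.4).

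PHL8 and both PHL5-like genes belong to the relatives of PHR1, the Arabidopsis regulator of the response to low phosphate. PHL8 (LOC103950809) had 134, 129 and 148 normalized counts in boron libraries 1 to 3 and 70.8, 47.9 and 64.8 in control libraries 1 to 3. PHL5-like LOC103940560 had 14.5, 12.6 and 21.6 normalized counts in boron libraries 1 to 3 and 0.997, 0 and 6.48 in control libraries 1 to 3, and PHL5-like LOC103964856 had 10.7, 9.92 and 4.91 normalized counts against 0 reads in every control library, which is at least 8.23-fold higher, taking a floor of 3 reads over the group. The rise of PHL8 became -0.26 with TMM, not called, the call of LOC103964856 was lost with quantile normalization, and that of LOC103940560 under all 3 rescalings. EFM (LOC103929184) and EFM-like (LOC103962996), named after an Arabidopsis repressor of flowering, had 88.0 ± 13.2 against 36.3 ± 14.4 and 64.9 ± 9.72 against 26.5 ± 8.02 normalized counts, and turned to -0.08 and -0.11 with TMM, not called. ETC1 (LOC103948135), which in Arabidopsis holds back trichomes, had 3.88, 0.902 and 0.981 normalized counts in boron libraries 1 to 3 and 28.9, 6.24 and 4.32 in control libraries 1 to 3. Control library 1 of ETC1 stood far above the other control libraries, and the fall of -1.99 ± 0.68 (SE; adjusted p = 0.0154 by limma) became -1.23 (adjusted p = 0.0573) without it. The call was also lost without boron library 2 (adjusted p = 0.0700) or boron library 3 (adjusted p = 0.0635).

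APL-like (LOC103953315), named after the Arabidopsis factor of phloem identity, had 93.0, 53.2 and 50.1 normalized counts in boron libraries 1 to 3 and 17.9, 43.7 and 31.3 in control libraries 1 to 3. Boron library 1 was far above the others, and the rise of 1.08 ± 0.37 (SE; adjusted p = 0.0144 by limma) lost its call without boron library 1 (adjusted p = 0.0742) or control library 1 (adjusted p = 0.0523) and turned to -0.32 with TMM, not called. The L10-interacting MYB gene (LOC103967786), whose Arabidopsis namesake acts in antiviral signalling, had 27.1 ± 4.49 against 6.99 ± 2.60 normalized counts. Further rises were myb-like protein F (LOC103963111), with 63.3 ± 4.05 against 14.2 ± 3.38, the myb/SANT-like gene (LOC103946251), with 65.2 ± 13.7 against 28.8 ± 10.7, and MYB59-like (LOC103948953), with 30 reads in boron and 2 in control libraries, a ratio of 13.7 (counting interval 3.48 to 118). The call of the L10-interacting MYB gene was lost under all 3 rescalings, that of myb-like protein F under TMM, and that of MYB59-like under quantile normalization. The myb/SANT-like gene turned to -0.20 with TMM, not called. Myb-like protein J (LOC103943973) had 22.3, 13.5 and 15.7 normalized counts after boron and 2 reads across the control libraries, a ratio of 24.7 (counting interval 6.51 to 209).

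Several names were shared by more than 1 gene, and copies of a name did not always move the same way. WRKY40, a factor of abscisic acid and defence responses in Arabidopsis, was the name of a pair with opposite directions. LOC103941164 (scaffold NW_008989274.1, 67892 to 70252, minus strand) had 152, 167 and 111 normalized counts in boron libraries 1 to 3 and 47.9, 74.9 and 64.8 in control libraries 1 to 3. LOC103945359 (scaffold NW_008988071.1, 132881 to 135170, plus strand) had 3.88, 0.902 and 0.981 normalized counts in boron libraries 1 to 3 and 19.9, 17.7 and 22.7 in control libraries 1 to 3. The more abundant copy was higher and the less abundant copy lower in boron fruit, with log2 fold changes of 1.19 ± 0.23 (SE; adjusted p = 0.000591 by limma) and -2.99 ± 0.51 (SE; adjusted p = 0.00022 by limma). With TMM the values were -0.24, not called, and -4.07, called, so that the opposite signs were seen with the authors' size factors and with quantile normalization (0.21, not called) but not with TMM or DESeq2-type scaling (-0.19, not called). The MYB6-like repressor genes also split. LOC103935943 had 24.2, 18.9 and 25.5 normalized counts against 0 reads in every control library, which is at least 21.9-fold higher. LOC103952719 had 20 reads in the boron and 1 in the control libraries, a ratio of 18.3 (counting interval 2.93 to 758). LOC103961025 had 10.7, 8.11 and 7.85 normalized counts in boron libraries 1 to 3 and 24.9, 31.2 and 57.2 in control libraries 1 to 3, a fall of -1.90 ± 0.41 (SE; adjusted p = 0.00118 by limma). The rise of LOC103935943 and the fall of LOC103961025 were called under all 3 rescalings, and LOC103952719 became -0.14 with quantile normalization, not called. The pairs of MYB108, NAC37, MYB44, MYB86, EFM and PHL5 genes each had both copies on one side with the authors' size factors. Reads of similar copies may have been shared or split between them, and whether counting used strand is not given, so values of single copies are uncertain to that extent.

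**Figure D5:**
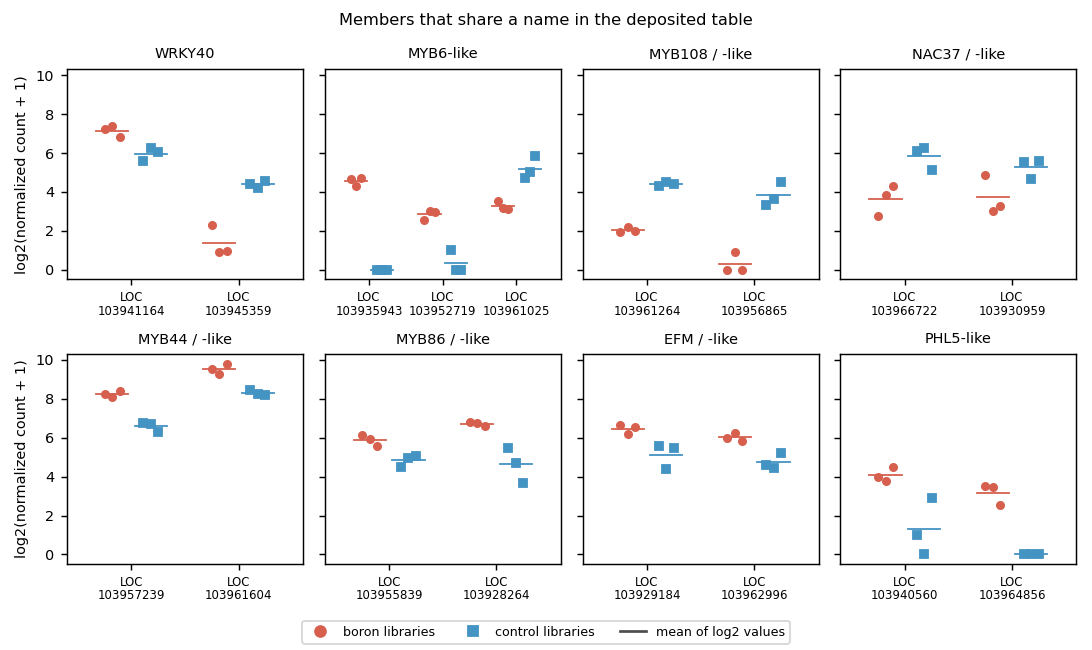
Log2(normalized count + 1) of each library for members that share a name, with circles for boron libraries, squares for control libraries and bars for the mean of the log2 values. The WRKY40 copies and the MYB6-like copies move in opposite directions, and the copies of the other 6 names move the same way, with the authors' size factors.

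The 50 genes lay on 49 scaffolds. Only WRKY15 and MYB44-like shared one, with 237355 bases between them. Of the 50, 22 were on the plus and 28 on the minus strand, and all were annotated as protein coding. Gene lengths ran from 429 to 3011 bases with a median of 1548.5, beside 1613 for all listed genes. In the authors' deposited score, which has no header and was taken to be a signal-to-noise measure, MYB6-like LOC103935943 ranked 260 from the highest of 42194 genes and WRKY53 ranked 42091.

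Genes of pathways linked to these families were read from the same table by words in their descriptions, and each count stands against the 73.0% of all listed genes called higher and the 26.2% called lower. Counts with TMM stand against 33.4% higher and 28.9% lower. Of 130 such genes outside the members, 106 were higher, 23 were lower and 1 did not pass. Median log2 fold changes of the 8 lists ran from 1.44 for the VQ motif genes to 2.12 for the secondary wall, beside 1.62 for all listed genes. The search for bHLH and WD40 genes, families that include partners of MYB proteins, found 24 genes, all described as bHLH proteins or as GLABRA 3-like, so that it is a list of bHLH genes and not of MYB partners. Of these 21 were higher, bHLH121 and bHLH113-like were lower and bHLH147 did not pass, and with TMM 9 were higher and 3 lower. The GLABRA 3-like gene (LOC103941198), a direct MYB partner in Arabidopsis trichomes, had 29.3 ± 5.50 against 5.21 ± 1.17 normalized counts. Flavonoid enzymes counted 11 higher and 3 lower of 14, or 6 and 3 with TMM, while their summed level was lower in boron libraries, 3326 to 3381 normalized counts against 4517 to 4926. The largest falls were steep: a 2-hydroxyisoflavanone dehydratase-like gene (LOC103930798), named after an enzyme of isoflavone synthesis in legumes, had 6.94 ± 4.84 against 2865 ± 111, and a flavonol sulfotransferase-like gene (LOC103929121) had 65.7 ± 10.4 against 937 ± 47.4. LOC103930798 made up most of the control sum and very little of the boron sum, so the lower sum reflects that gene and not the list as a whole. A second 2-hydroxyisoflavanone dehydratase-like gene (LOC103964186) was higher, at 1895 ± 78.6 against 466 ± 23.7. Chalcone synthase-like LOC103965055, for the first committed step, had 29.5 ± 4.34 against 8.35 ± 3.35, and flavonoid 3'-monooxygenase (LOC103930751) had 24.2, 22.5 and 18.6 normalized counts against 0 reads in control. Of 24 genes of the secondary wall and lignin, 18 were higher and 6 lower, or 9 and 6 with TMM, and their summed level was lower in boron libraries, 10972 to 11887 against 16848 to 20279. The largest falls were those of cinnamoyl-CoA reductase 1-like genes, named after an enzyme of monolignol synthesis, with 1.94, 0 and 0 normalized counts in boron and 209, 185 and 134 in control libraries for LOC108867111 and 1.96 ± 3.40 against 143 ± 24.6 for LOC103963803. The most abundant, trans-cinnamate 4-monooxygenase (LOC103945990), which makes p-coumarate, was lower at 8314 ± 411 against 16666 ± 1732. It made up most of the summed level in both groups, so the lower sum reflects that gene and not the list as a whole. Laccase-4 (LOC103959581), which polymerizes lignin, had 19.4 ± 3.62 against 4.25 ± 4.76, and it was called with the authors' size factors and not with TMM (1.12).

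Salicylate and pathogenesis-related genes, whose Arabidopsis counterparts include known WRKY targets, counted 34 higher and 5 lower of 39, or 18 and 8 with TMM. Many of the 39 are described only as glucan endo-1,3-beta-glucosidases, so the count is not one of salicylate responses. The pathogenesis-related protein 1-like gene (LOC103934333), a marker of salicylate responses, had 42.6, 61.3 and 50.1 normalized counts in boron libraries 1 to 3 and 18.9, 5.20 and 5.40 in control libraries 1 to 3. Its groups did not overlap, and its rise of 2.48 ± 0.48 (SE; adjusted p = 0.00054 by limma) was not called with TMM (1.13). A thaumatin-like gene (LOC103967808), of an antifungal protein family, had 1644 ± 117 against 503 ± 44.8. The MAP kinase cascade, which phosphorylates WRKY factors, had 7 genes higher and 3 lower of 10, or 3 and 3 with TMM, and MAP kinase 3 (LOC103948905) was lower at 5.35 ± 1.26 against 17.7 ± 4.34. Both VQ motif genes, of a family that binds WRKY proteins, were higher: VQ9 (LOC103962112) had 161 ± 38.4 against 75.8 ± 15.6 and VQ22 (LOC103939513) had 54.5 ± 10.5 against 15.4 ± 6.56, and neither was called with TMM. Of 7 genes of senescence and chlorophyll breakdown, 5 were higher and 2 lower, or 2 and 2 with TMM. Chlorophyll(ide) b reductase NYC1 (LOC103962968), which starts the breakdown of chlorophyll b, fell from 1351 ± 91.4 to 202 ± 14.0, while pheophytinase (PPH) had 299 ± 18.8 against 88.8 ± 4.75 and was not called with TMM.

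Circadian clock genes, some of which encode MYB-related proteins outside the naming rule, counted 8 higher and 2 lower of 10, or 2 and 3 with TMM. LHY-like (LOC103927985), a MYB-related repressor at the core of the morning loop, had 2908, 3001 and 2578 normalized counts in boron libraries 1 to 3 and 6254, 6812 and 6455 in control libraries 1 to 3, a log2 fold change of -1.20 ± 0.07 (SE; adjusted p = 6.78e-08 by limma). REVEILLE 1 (LOC103959917), a relative of LHY, had 36.8, 40.6 and 26.5 normalized counts in boron libraries 1 to 3 and 8.97, 2.08 and 6.48 in control libraries 1 to 3, a log2 fold change of 2.52 ± 0.51 (SE; adjusted p = 0.000719 by limma) that was not called with TMM (1.22). The hour at which fruit of each group was taken is not given in the sources used here, and the groups' values are given without regard to it.

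Markers of other tissues moved in the same table, and their counts stand against 73.0% of all listed genes called higher and 26.2% called lower. Of 9 listed peel markers 8 were higher, with summed levels of 1242 to 1324 normalized counts in boron and 436 to 478 in control libraries, and 1 of them, a non-specific lipid-transfer protein 1-like gene, was at 0 reads in control. Several of the 9 are described only as non-specific lipid-transfer proteins. Among these, LOC103950629 had 643 ± 17.6 against 84.6 ± 7.95 normalized counts and gave the largest part of the boron sum. The 1 lower peel marker, GLABRA 2-like (LOC103944856), had 93.7 ± 9.47 against 270 ± 24.4. All 5 vascular markers, APL-like among them and all of them phloem genes, were higher, with sums of 1012 to 1114 in boron and 324 to 373 in control libraries, and none was at 0 in a whole group. With TMM, 7 peel markers were higher and 1 lower, and 2 vascular markers were higher, beside 33.4% of all listed genes higher and 28.9% lower. Of 6 seed markers 5 were higher and 1 lower, and their sum ran lower in boron libraries, 1905 to 2044 against 2309 to 2590.1. The 1 lower gene, legumin B-like (LOC103946296), had 931 ± 104 against 2235 ± 167 and made up most of the control sum. The lower sum reflects that gene and not the seed markers as a whole. The list of microbial and viral terms matched 1 gene, a proline synthase homolog that carries the word bacterial in its name, and it was lower. A part of peel or vascular tissue in the levels of NAC86-like, APL-like and other members was not tested.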

How the data were processed

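Messenger RNA of pear pulp was sequenced in 6 libraries, 3 per group. The deposited table gives, per the file headers, library values for each listed gene. These are signal values, gene counts that the authors had divided by 1 size factor per library. Whole reads were recovered from them for 100% of values, with a largest deviation of 5.48e-06 from a whole number. The authors' deposited log2 fold changes and p-values were used only where named. The score in the second deposited table, from the authors, has no header and was taken from its values to be a signal-to-noise measure. Alignment used HISAT2, per the submitters' processing notes. Neither counter, genome build, strand setting nor the authors' test is named in the labels or headers.

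Members were the table's genes whose description names a WRKY, NAC or MYB protein. Log2(value + 1) of all 4291 listed genes was fitted with limma 3.58.1 in R 4.3.3 (trend and robust options), with Benjamini-Hochberg adjustment over all of them and a threshold of 0.05. Fold changes are on that scale and understate the change of low genes. Since listed genes had been chosen on these libraries, the tests describe them. Genes at few reads are given as ratios of reads scaled by size factors, with a 95% interval, or against a floor of 3 reads over the group. Alternatives used edgeR 4.0.16 and DESeq2 1.42.0 on the recovered reads, 3 rescalings over the listed genes, pseudocounts 0.5 and 5, a minimum mean of 10, a replicate block and each library left out. Library totals cover the listed genes only, and the full depth is not given. The fits were tested on simulated data.

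Members and lists were chosen with earlier results of these data known. In each family the rule named the 5 largest rises and 3 largest falls among called genes whose groups do not overlap and whose higher group has a mean of at least 100 normalized counts, and the gene with the highest level per kilobase. It named 15 members, and the other 35 and the list genes were chosen after their values were seen.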

Additional observations from a re-analysis of the deposited data

How the results depend on the processing

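Among the 50 genes, the 13 falls kept their direction and call under TMM, DESeq2-type and quantile scaling, pseudocounts 0.5 and 5, limma without the robust option, edgeR and DESeq2 on reads, and the replicate block. TMM and DESeq2-type scaling moved the falls further down, so falls could not change sign there. Quantile scaling moved the median of all listed genes by -1.25 and made every fall but that of NAC56 larger. Rises called numbered 37 with the authors' size factors and 11, 12 and 14 with TMM, DESeq2-type and quantile scaling. By family, in that order, they were 2, 2 and 4 for WRKY, 2, 2 and 2 for NAC, 7, 8 and 8 for MYB, and 49, 51 and 52 for the pathway lists. Median log2 fold changes became -0.10, -0.058 and 0.17 for all members, -0.13, -0.0886 and 0.21 for WRKY, -0.23, -0.19 and 0.0257 for NAC, and 0.21, 0.25 and 0.20 for MYB. Called genes of the whole table split 3131 higher to 1126 lower with the authors' size factors, 1433 to 1241 with TMM, 1486 to 1216 with DESeq2-type and 1522 to 1145 with quantile scaling. With a mean of at least 10 normalized counts, 3 WRKY and 3 MYB genes were called lower, since fewer genes were tested, and the MYB median was 1.31. It was 1.32 with pseudocount 5. The cause of the other shifts was not tested.

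Log2 fold changes that turned negative, none of them called, are given with TMM first and DESeq2-type second: MYB44-like -0.20 and -0.15, WRKY26 -0.0918 and -0.0471, WRKY23 -0.13 and -0.0886, WRKY35 -0.0802 and -0.0355, PHL8 -0.26 and -0.21, WRKY40 LOC103941164 -0.24 and -0.19, NAC100-like -0.17 and -0.13, WRKY17 -0.42 and -0.37, EFM -0.0775 and -0.0333, NAC30-like -0.29 and -0.24, EFM-like -0.11 and -0.069, the myb/SANT-like gene -0.20 and -0.15, MYB86 -0.37 and -0.33, NAC86-like -0.16 and -0.12, and APL-like -0.32 and -0.28. With quantile scaling WRKY17 was at -0.0034, MYB86 at -0.19, NAC86-like at -0.11, APL-like at -0.13 and MYB6-like LOC103952719 at -0.14.

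Leaving out each library in turn gave 36 to 37 members higher and 11 to 13 lower. WRKY stayed at 10 higher and 5 lower, NAC at 5 higher and 2 to 3 lower, and MYB ran from 21 to 22 higher and 4 to 5 lower. Pathway genes ran from 105 to 106 higher and stayed at 23 lower. Medians ran from 1.29 to 1.43 for all members, 1.20 to 1.36 for WRKY, 0.81 to 1.28 for NAC and 1.55 to 1.71 for MYB. The NAC median of 0.81 was that without control library 1. Libraries share replicate numbers, but deviations of same-numbered libraries correlated at -0.01, 0.03 and -0.04, which does not pair them. With the replicate number as a block, 37 members were higher and 13 lower. Low counts limit 12 members with a mean below 10 normalized counts.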

Other observations

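The naming rule left out 22 listed genes that carry the same domains in the protein family column, 3 with a NAM and 19 with a Myb domain. They were looked at after their values were seen. CUP-SHAPED COTYLEDON 2-like (LOC103944422), a NAC factor of organ boundaries in Arabidopsis, had 27.1, 10.8 and 27.5 normalized counts in boron libraries 1 to 3 and 167, 194 and 138 in control libraries 1 to 3. The groups were far apart, with a log2 fold change of -2.97 ± 0.34 (SE; adjusted p = 1.29e-05 by limma). Both NTM1-like 9 genes, of NAC factors held at membranes in Arabidopsis, were higher, with 266 ± 33.0 against 93.4 ± 13.3 normalized counts for LOC103932936 and 69.4 ± 10.5 against 28.7 ± 4.86 for LOC103932904.

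Among genes with a Myb domain, DIVARICATA (LOC103933618), named after a snapdragon factor of flower asymmetry, had 840.0 ± 26.2 against 268 ± 12.9 normalized counts, and DIVARICATA-like LOC103938545 had 605 ± 31.0 against 212 ± 22.9. PCL1-like (LOC103964693), named after the Arabidopsis clock protein also called LUX, was lower at 69.0 ± 11.4 against 249.9 ± 29.0. CPC-like (LOC103934240), which in Arabidopsis works with ETC1 in the patterning of root hairs and trichomes, was higher at 58.1 ± 5.16 against 14.9 ± 5.58, where ETC1 was lower. WER-like (LOC103953031), named after the Arabidopsis R2R3 factor that the CPC type opposes, had 0 reads in every boron library and 5.98, 5.20 and 23.8 normalized counts in control libraries 1 to 3. GLK1 (LOC103947907), a chloroplast development factor in Arabidopsis, had 42.2 ± 9.78 against 6.18 ± 5.80, with control libraries spread from 1.08 to 12.5. These values use the authors' size factors.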
